A study of Mus musculus with 6 samples.

Results

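The metallothionein and NRF2 antioxidant genes are 10 genes of the gastrocnemius (GAS) muscle of mice: *Mt1*, *Mt2*, *Srxn1*, *Hmox1*, *Nqo1*, *Gclc*, *Gclm*, *Txnrd1*, *Gsr* and *Nfe2l2*. They were taken by gene symbol from the 24532 genes of the count table, and all 10 were among the 13801 genes that passed the filter on low counts. The list was chosen by measured values of the comparison described here, because *Mt1* and *Srxn1* had been seen to be much lower in libraries with the label *Sirt6* KO, and the other members were added to ask whether the rest of the pathway follows. The members' differences between the groups are therefore given as a description. Calls for the members, in any of the fits below, come from the comparison that chose the list and are not a test of it.

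RNA was sequenced from the GAS muscle of 3 animals labelled WT, which carry floxed *Sirt6* alleles (*Sirt6* flox/flox) and no Cre, and of 3 animals labelled *Sirt6* KO, which carry the same floxed alleles and *Myl1-Cre*. Both groups were males of about 20 weeks of age on C57BL/6, with 1 library per animal. The floxed alleles are shared by the controls. *Myl1-Cre* is active mainly in fast, postmitotic myofibers from embryonic life on, so not every cell of the muscle is its target. The paper also reports recombination in the slow soleus muscle, and more efficient deletion in glycolytic than in oxidative muscles.

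Metallothioneins are small cysteine-rich proteins that bind zinc and copper, and their genes are switched on by the zinc sensor MTF1 through metal response elements (MREs) and by glucocorticoids and oxidative stress. NRF2, the product of *Nfe2l2*, is held low by KEAP1 and the proteasome, and when KEAP1 is oxidized it enters the nucleus with a small MAF protein and binds antioxidant response elements (AREs) before genes of glutathione synthesis, the thioredoxin system, quinone reduction and haem breakdown. BACH1 competes with NRF2 for these elements. In muscle these systems handle the peroxides made by mitochondria and by contraction.

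The promoters of the 3 members with the largest differences are printed because AREs and MREs, through which these pathways are known to act, were searched for in them. They come from RefSeq on GRCm38.p6 and span 250 bases before to 50 after the annotated start, 5′ to 3′ on the strand of the gene. Capitals mark matches on either strand to an ARE core, TGACNNNGC, or to an MRE core, TGCACNC or TGCGCNC. They lie at chr8:94178839-94179138 for *Mt1*, chr8:94172368-94172667 for *Mt2* and chr2:152105274-152105573 for *Srxn1*, all on the plus strand.
Mt1: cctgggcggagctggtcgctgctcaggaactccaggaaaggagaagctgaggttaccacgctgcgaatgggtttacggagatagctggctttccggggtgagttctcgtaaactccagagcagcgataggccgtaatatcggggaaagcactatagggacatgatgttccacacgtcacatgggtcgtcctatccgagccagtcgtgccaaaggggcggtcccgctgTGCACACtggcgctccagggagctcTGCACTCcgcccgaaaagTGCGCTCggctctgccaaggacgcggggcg
Mt2: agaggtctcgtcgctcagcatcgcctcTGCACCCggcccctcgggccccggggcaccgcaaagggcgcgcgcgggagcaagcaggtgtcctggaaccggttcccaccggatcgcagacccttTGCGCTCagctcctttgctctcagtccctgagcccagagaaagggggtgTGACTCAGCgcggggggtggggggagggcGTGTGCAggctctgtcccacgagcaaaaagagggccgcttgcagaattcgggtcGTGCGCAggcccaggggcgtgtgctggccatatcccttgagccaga
Srxn1: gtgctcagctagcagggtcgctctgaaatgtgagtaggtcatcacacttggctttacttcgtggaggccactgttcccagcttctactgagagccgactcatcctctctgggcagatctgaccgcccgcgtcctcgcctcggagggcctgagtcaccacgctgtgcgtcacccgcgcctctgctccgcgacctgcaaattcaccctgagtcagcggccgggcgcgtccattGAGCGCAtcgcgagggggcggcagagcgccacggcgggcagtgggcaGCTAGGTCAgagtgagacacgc

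The *Mt1* window held 3 MRE cores and no ARE core, the *Mt2* window 4 MRE cores and 1 ARE core, and the *Srxn1* window 1 of each. Of all 32851 promoter windows, 12.4% held an ARE core and 25.7% an MRE core, and 1.97% held 3 or more MRE cores. Of the 10 genes 7 had a window, 9 windows in all, since *Txnrd1* had 3 starts. An ARE core was found for 5 of these genes (*Mt2*, *Srxn1*, *Gclm*, *Txnrd1* at its start 2 and *Nfe2l2*) and an MRE core for 4 (*Mt1*, *Mt2*, *Srxn1* and *Gclm*). *Gclm* had 3 MRE cores, 1 of which overlaps its ARE core, and the *Nqo1* window had neither core. These matches are a description of letters in a window around RefSeq's start, and neither binding nor the start used in this muscle was measured. The *Mt1* gene as annotated begins at 94178883, upstream of the start around which its printed window is drawn. Bases beyond the windows were not searched, so the lack of an ARE core for *Mt1* holds for the printed letters only.

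**Figure D1:**
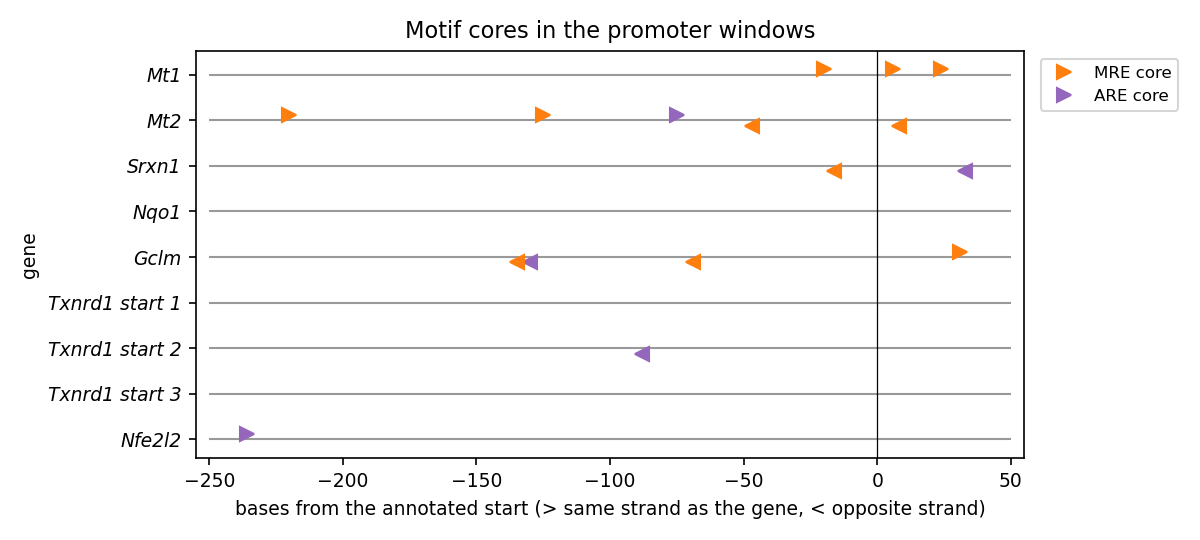
Positions of ARE and MRE cores in the 9 promoter windows of the 7 genes, in bases from the annotated start (vertical line), with triangles pointing right for the strand of the gene and left for the other strand. The 3 MRE cores of *Mt1* lie between 23 bases before and 27 after the start, and the *Nqo1* window is empty.

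The 6 libraries held between 44845763 and 63016899 counts on genes, so that 1 count is worth 0.0165 to 0.0212 normalized CPM (TMM-scaled counts per 1e6 counts), and even the lowest member, *Mt2* in library 1 labelled *Sirt6* KO, rested on 270 counts. The count of *Sirt6* itself goes against the label: it was 2.77, 2.23 and 2.88 CPM in WT libraries 1, 2 and 3 and 7.81, 7.44 and 6.68 CPM in libraries 1, 2 and 3 labelled *Sirt6* KO, a log2 difference of 1.48 (SE 0.17). This count is for the whole gene, and reads over the floxed exons, which would show the deletion, were not examined. The paper reports loss of Sirt6 protein in skeletal muscle of its KO mice by Western blotting. The groups are therefore named by their labels (WT and KO-labelled), and every direction below is that of the KO-labelled libraries against WT. Muscle fiber markers were high in all 6 libraries, as for skeletal muscle, with a summed level of 168900 to 266700 CPM in WT and 251500 to 287200 CPM in the KO-labelled libraries. The samples are bulk muscle, in which fewer cells of a type and less RNA per cell cannot be told apart.

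Of the 10 genes, 6 were called lower (*Mt1*, *Mt2*, *Srxn1*, *Hmox1*, *Gclm* and *Nfe2l2*), none was called higher and 4 were not called, where called means an adjusted p under 0.05 in the quasi-likelihood test of edgeR (Benjamini-Hochberg over all genes tested). Over all 13801 genes, 8.39% were called lower and 7.85% higher. The 2 groups did not overlap for 7 of the 10 genes, all lower, where 19.6% of all genes were apart and lower and 20.3% apart and higher. Because this contrast chose the list, nothing is read from these counts. None of the 6 was called without KO-labelled library 1 or 3, 3 were called without WT library 2, 5 without WT library 1 or KO-labelled library 2, and 6 without WT library 3. The median log2 difference of the 10 genes was -1.03, and that of all genes tested was -0.02. The differences fell into 3 sizes: *Mt1*, *Srxn1* and *Mt2* were lower by more than 2 on the log2 scale, *Hmox1*, *Nfe2l2* and *Gclm* by 0.87 to 1.22, and the other 4 by 0.49 or less or not at all.

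**Figure D2:**
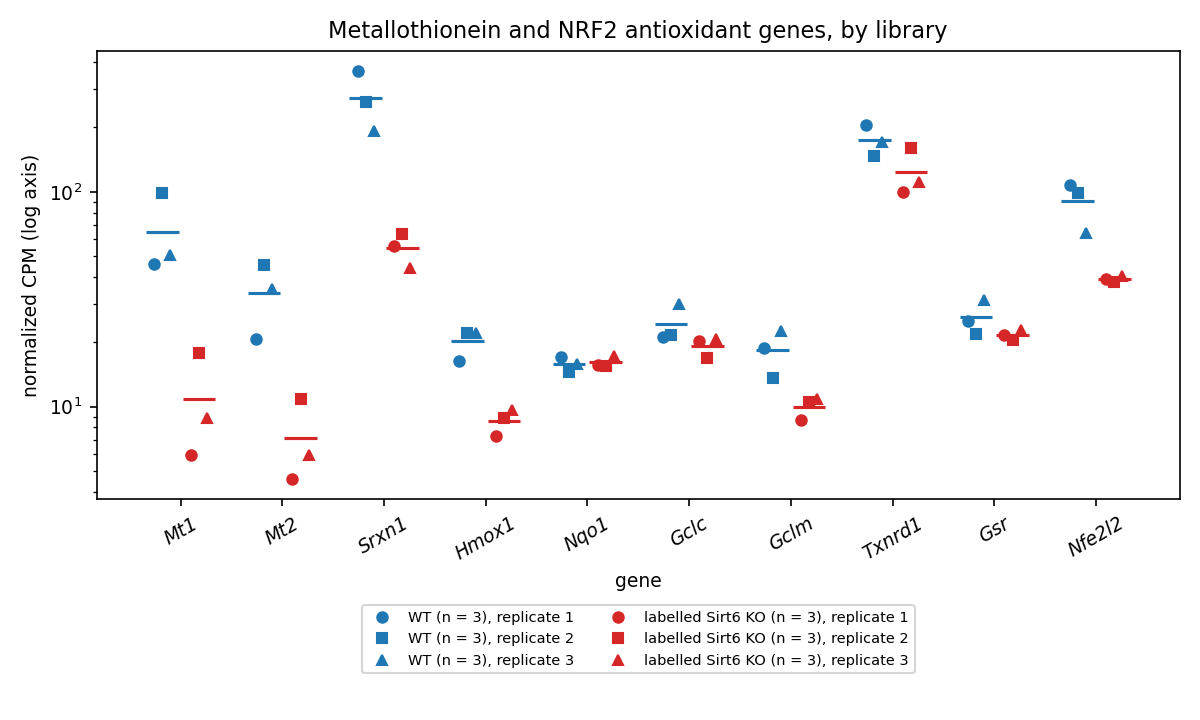
Normalized CPM (log axis) of the 10 genes in each of the 6 libraries, blue for WT and red for the libraries labelled *Sirt6* KO, with a bar at each group's mean (n = 3) and a symbol for each replicate number. *Mt1*, *Mt2*, *Srxn1*, *Hmox1*, *Gclc*, *Gclm* and *Nfe2l2* show no overlap between groups, and *Nqo1*, *Txnrd1* and *Gsr* overlap.

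The metallothioneins *Mt1* (gene 17748, chr8:94178883-94180327, plus strand) and *Mt2* (gene 17750, chr8:94172618-94173567, plus strand) are neighbours, with 5315 bases between them. *Mt1* was 45.9, 98.6 and 50.8 CPM in WT libraries 1, 2 and 3 and 5.98, 17.8 and 8.88 CPM in libraries 1, 2 and 3 labelled *Sirt6* KO. *Mt2* was 20.6, 45.6 and 35.2 CPM in WT and 4.61, 10.9 and 5.96 CPM in the KO-labelled libraries. For both genes library 2 was the highest and library 1 the lowest of either group, and the groups did not overlap. The mean of *Mt1* went from 65.1 ± 29.1 CPM (SD, n = 3) to 10.9 ± 6.18, a 5.97-fold lower mean and a log2 difference of -2.58 (SE 0.46). The mean of *Mt2* went from 33.8 ± 12.5 to 7.16 ± 3.31 CPM (SD, n = 3), a 4.72-fold lower mean and a log2 difference of -2.24 (SE 0.39). Over the fits that lacked a library, the log2 difference lay between -3.12 and -2.15 for *Mt1* and between -2.66 and -1.96 for *Mt2*. The ratio of *Mt1* to *Mt2* on the TPM scale, which divides by length, was 2.29, 2.22 and 1.48 in WT and 1.33, 1.68 and 1.53 in the KO-labelled libraries, and overlapped between groups. The antisense gene *Gm45774* overlaps *Mt2*, and whether the counting used the strand is not given in the sources used here. Any reads that fit both metallothionein genes could have been split between them.

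Sulfiredoxin, the product of *Srxn1* (gene 76650, chr2:152105524-152111376, plus strand), restores peroxiredoxins that peroxide has over-oxidized, and its gene is a known target of NRF2 and AP-1. *Srxn1* was 364, 261 and 191 CPM in WT and 56.0, 63.6 and 44.0 CPM in the KO-labelled libraries. The lowest WT library was thus far above the highest library of the other group. The mean went from 272 ± 87.0 to 54.5 ± 9.86 CPM (SD, n = 3), a 4.99-fold lower mean, with a log2 difference of -2.32 (SE 0.26) that lay between -2.52 and -2.04 with each library left out.

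Haem oxygenase 1, the product of *Hmox1* (gene 15368, chr8:75093618-75100593, plus strand), opens the haem ring and releases iron, carbon monoxide and biliverdin, and its gene is repressed by BACH1. *Hmox1* was 16.4, 22.0 and 22.0 CPM in WT and 7.28, 8.89 and 9.68 CPM in the KO-labelled libraries, with no overlap. The mean went from 20.1 ± 3.24 to 8.62 ± 1.22 CPM (SD, n = 3), a log2 difference of -1.22 (SE 0.17) that ranged from -1.34 to -1.11 with single libraries left out. *Nfe2l2* (gene 18024, chr2:75675513-75704663, minus strand), which encodes NRF2 itself, was 108, 99.0 and 64.0 CPM in WT and 39.4, 38.2 and 40.6 CPM in the KO-labelled libraries. The latter 3 libraries lay close together, while the WT libraries were spread and WT library 3 was the lowest of them. The mean of *Nfe2l2* went from 90.3 ± 23.2 to 39.4 ± 1.18 CPM (SD, n = 3), a log2 difference of -1.20 (SE 0.19) with a range from -1.39 to -1.04. This is a level of mRNA, and NRF2 activity is set mostly at the level of the protein, which was not analysed here.

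Glutamate cysteine ligase, the rate-limiting enzyme of glutathione synthesis, has a catalytic subunit encoded by *Gclc* (gene 14629, chr9:77754535-77794489, plus strand) and a modifier subunit encoded by *Gclm* (gene 14630, chr3:122245487-122267215, plus strand). *Gclm* was 18.8, 13.6 and 22.4 CPM in WT and 8.68, 10.5 and 10.9 CPM in the KO-labelled libraries, and *Gclc* was 21.1, 21.6 and 30.1 CPM against 20.2, 16.8 and 20.6 CPM. Neither gene overlapped between groups, but the gap for *Gclc* was small, and WT library 3 stood above the other WT libraries. The means of *Gclm* were 18.3 ± 4.42 and 10.01 ± 1.16 CPM and those of *Gclc* 24.3 ± 5.09 and 19.2 ± 2.06 CPM (SD, n = 3). The log2 difference was -0.87 (SE 0.20) for *Gclm* and -0.34 (SE 0.17) for *Gclc*, which was not called and lay between -0.42 and, without WT library 3, -0.15. The ratio of *Gclc* to *Gclm* on the TPM scale was 0.679, 0.959 and 0.814 in WT and 1.40, 0.972 and 1.15 in the KO-labelled libraries, so the catalytic subunit's mRNA was the more abundant of the pair in 2 of the latter 3 libraries and in none of WT. The difference of *Gclm* was -0.61 once the dependence of counts on GC content had been removed, and the gene was then not called. *Gclm* shares its locus with the antisense gene *Gm17494* and the pseudogene *Gm6061*.

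The remaining enzymes differed less. Quinone oxidoreductase 1, the product of *Nqo1* (gene 18104, chr8:107388225-107403205, minus strand) and a classical NRF2 target, was 17.0, 14.5 and 15.9 CPM in WT and 15.6, 15.5 and 17.3 CPM in the KO-labelled libraries. The groups overlapped, the means were 15.8 ± 1.26 and 16.1 ± 0.999 CPM (SD, n = 3), and the log2 difference was 0.03 (SE 0.11). Its sign changed with single libraries left out, within a range from -0.03 to 0.10. Thioredoxin reductase 1, the product of *Txnrd1* (gene 50493, chr10:82833951-82897724, plus strand), reduces thioredoxin in the cytosol. *Txnrd1* was 204, 146 and 171 CPM in WT and 100, 160 and 111 CPM in the KO-labelled libraries, where library 2 lay within the WT values, and its log2 difference was -0.49 (SE 0.21), with a range from -0.70 to -0.35 over single libraries left out. *Eid3* lies on the same strand within this gene, and *Gm38560* and *Gm47073* on the other strand. Glutathione reductase, the product of *Gsr* (gene 14782, chr8:33653238-33698162, plus strand), returns oxidized glutathione to its reduced form. *Gsr* was 24.9, 21.8 and 31.3 CPM in WT and 21.6, 20.5 and 22.8 CPM in the KO-labelled libraries, with overlap and a log2 difference of -0.27 (SE 0.15) that ranged from -0.38 to -0.11, the latter without WT library 3. *Txnrd1* and *Gsr* were not called.

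**Figure D3:**
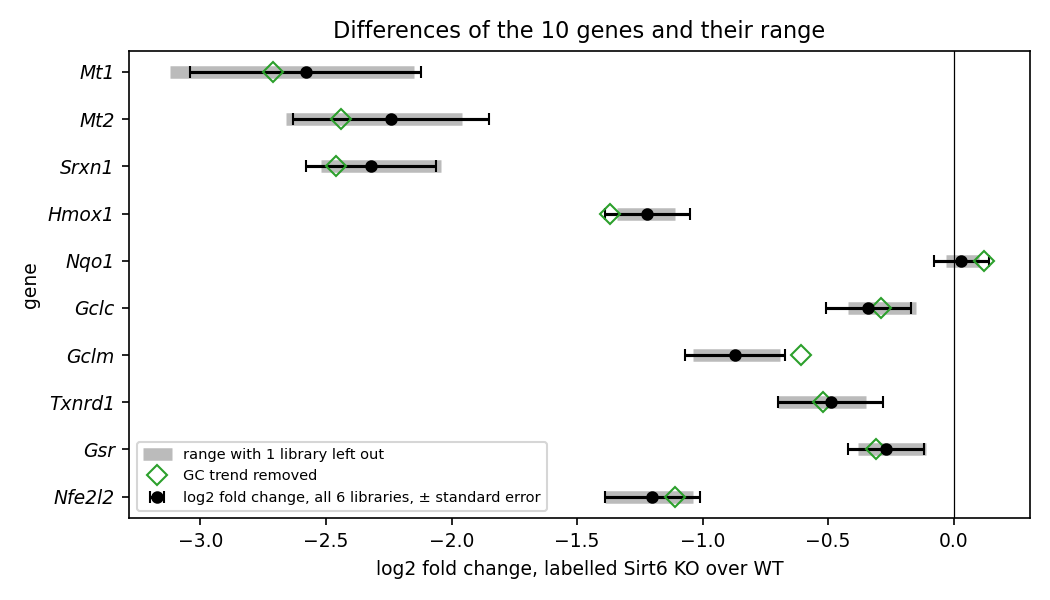
Log2 fold change of each gene, libraries labelled *Sirt6* KO over WT (n = 3 each), as black points with standard errors, with the range over leaving out each library as grey bars and the value after removing the GC trend as green diamonds. *Nqo1* sits at 0.03 across the zero line, *Mt1* is lowest at -2.58, and the diamond of *Gclm* lies at -0.61, above its grey bar.

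On the TPM scale, which allows levels of different genes to be set side by side, *Mt1* was the most abundant member in WT at 265 ± 126 TPM (SD, n = 3), before *Srxn1* at 217 ± 90.1, *Mt2* at 132 ± 48.7, *Txnrd1* at 112 ± 27.1 and *Nfe2l2* at 81.2 ± 28.3. *Hmox1* at 27.8 ± 3.30, *Nqo1* at 22.4 ± 3.48, *Gsr* at 21.1 ± 2.38, *Gclm* at 19.1 ± 3.79 and *Gclc* at 15.3 ± 1.48 TPM followed. In this order only the neighbours *Nfe2l2* and *Hmox1* did not overlap in their libraries. In the libraries labelled *Sirt6* KO *Txnrd1* came first at 73.3 ± 17.6 TPM (SD, n = 3), before *Mt1* at 40.3 ± 22.3, *Srxn1* at 39.3 ± 7.32, *Nfe2l2* at 32.1 ± 1.23, *Mt2* at 25.9 ± 11.6 and *Nqo1* at 21.0 ± 1.06. *Gsr* at 16.4 ± 0.952, *Gclc* at 11.3 ± 1.36, *Hmox1* at 11.0 ± 1.26 and *Gclm* at 9.74 ± 0.847 TPM came last. There the neighbours *Nqo1* and *Gsr* and the neighbours *Gsr* and *Gclc* did not overlap. The ratio of *Srxn1* to *Txnrd1* was 2.17, 2.16 and 1.36 in WT and 0.678, 0.482 and 0.479 in the KO-labelled libraries, so that *Srxn1* was above *Txnrd1* in every WT library and below it in every other.

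To see what the other genes of these pathways did, 139 genes in 8 lists outside the 10 members were examined, of which 130 passed the filter. Of these, 11 were called lower and 11 higher, which is 8.46% in each direction beside 8.39% and 7.85% of all genes, and their median log2 difference was -0.02. The other 108 were not called, and 48 of the 130 had an unadjusted p under 0.05 in edgeR. The share of all genes under that p is not given here. Nothing is read from this count or from the unadjusted counts by list below. In limma on quantile-normalized FPKM, 120 of the pathway genes were tested. With a pseudocount of 1, 11 were called lower and 19 higher, beside 1161 and 1431 of all 10683 genes. With 0.1 the calls were 10 and 17, beside 1093 and 1304. Without library 1 labelled *Sirt6* KO, edgeR called none of the 22 genes that it called over all 6 libraries (adjusted p = 0.0608 to 0.14). Without library 3 labelled *Sirt6* KO it also called none of them (adjusted p = 0.0711 to 0.163). All 22 kept their direction and an unadjusted p under 0.05. These fits share most of their libraries with the fit that picked the 22 genes, so this is not a test of them. Of the 22, 4 were called without WT library 1, 4 without WT library 2, 10 without library 2 labelled *Sirt6* KO and all 22 without WT library 3. The calls over all genes in each of these fits are given with the members above. The p-values of the genes named below come from edgeR's quasi-likelihood test, adjusted over all genes tested, unless another method is named. The DESeq2 calls by list below stand beside 1801 lower and 1730 higher of all 13801 genes in DESeq2. In edgeR these were 1158 and 1084.

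Of 21 genes of metallothionein and zinc handling 19 were tested, with 2 called lower, 1 higher and a median log2 difference of -0.03. *Slc39a14*, which encodes the importer ZIP14 for zinc, iron and manganese, fell from 40.4, 46.4 and 38.6 CPM in WT to 10.2, 24.1 and 15.9 CPM (log2 -1.32, SE 0.28, adjusted p = 0.0259). As for *Mt1* and *Mt2*, library 2 was the highest of either group. *Slc30a9*, a zinc transporter of mitochondria, fell from 124 ± 6.36 to 92.5 ± 5.69 CPM (SD, n = 3; log2 -0.42, adjusted p = 0.0371), and *Slc39a7*, which releases zinc from the endoplasmic reticulum, rose from 45.4 ± 6.29 to 67.3 ± 8.49 CPM (log2 0.57, adjusted p = 0.0393). Neither was called with GC content corrected (adjusted p = 0.177 and 0.172). *Slc39a1* was not called in edgeR (log2 0.27, adjusted p = 0.0789), but was called higher by DESeq2 (adjusted p = 0.0382). The zinc sensor gene *Mtf1* was 27.2, 25.3 and 23.8 CPM in WT and 26.4, 24.5 and 29.2 CPM in the KO-labelled libraries, with a log2 difference of 0.07 (SE 0.11, adjusted p = 0.696), and the zinc exporter gene *Slc30a1*, a known MTF1 target, had a log2 difference of -0.20 (SE 0.19, adjusted p = 0.498). Both are named here for their known tie to the metallothioneins and were chosen after their values were seen. *Mt4* and *Slc39a4* had no count in any library.

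Of the 12 regulators and partners of NRF2, 11 were tested, 2 were called lower and none higher in edgeR, where 4 were lower and 2 higher at an unadjusted p under 0.05, and DESeq2 called 3 lower and 2 higher. *Maff*, a small MAF protein gene, fell from 38.1, 86.2 and 17.5 CPM in WT to 2.19, 6.42 and 2.62 CPM (log2 -3.66, SE 0.67, adjusted p = 0.0183), the lowest log2 difference of the 130 genes. Its WT libraries were widely spread, and all of them were above the other group. *Bach1*, the repressor gene, fell from 87.7, 152 and 98.5 CPM to 44.4, 49.0 and 56.9 CPM (log2 -1.17, SE 0.22, adjusted p = 0.0189), so the gene of the activator and that of its competitor were both lower. *Mafk*, another small MAF gene, went from 74.0 ± 49.0 to 23.6 ± 6.99 CPM (SD, n = 3) and was not called in edgeR (log2 -1.65, adjusted p = 0.0511). DESeq2 called it (adjusted p = 0.00119), and without WT library 2, the highest at 129 CPM, the log2 difference was -0.98. *Btrc*, part of a ligase that marks NRF2 for breakdown, was not called (log2 0.36, adjusted p = 0.066), but was called higher with GC content corrected (log2 0.67, adjusted p = 0.0297) and by DESeq2 (adjusted p = 0.0381). The NRF2 anchor gene *Keap1*, named here after its values were seen, was 63.2, 61.1 and 89.5 CPM in WT and 106, 91.4 and 104 CPM in the KO-labelled libraries, without overlap but not called (log2 0.50, SE 0.17, adjusted p = 0.082). The ratio of *Nfe2l2* to *Keap1* on the TPM scale was 2.56, 2.19 and 1.02 in WT and 0.519, 0.598 and 0.546 in the KO-labelled libraries. *Nfe2l3* had no count.

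In the list of glutathione synthesis and use, 33 of 39 genes were tested, 3 were called lower and 5 higher, and the median log2 difference was 0.02. *Gpx3*, the secreted glutathione peroxidase gene, fell from 232, 193 and 171 CPM to 86.1, 101 and 90.1 CPM (log2 -1.11, SE 0.14, adjusted p = 0.0131). *Gpx1*, the cytosolic glutathione peroxidase gene, went the other way with a log2 difference of 0.72 (SE 0.18, adjusted p = 0.0388). *Abcc1*, a glutathione conjugate exporter gene, rose from 43.7 ± 2.53 to 64.1 ± 2.53 CPM (SD, n = 3; log2 0.55, adjusted p = 0.0168), and *Chac2*, which encodes a glutathione-degrading enzyme, fell from 13.3 ± 1.57 to 7.41 ± 1.11 CPM (log2 -0.84, adjusted p = 0.0195). Of the glutathione transferases, *Gstt2* rose from a low 0.769 ± 0.171 to 2.00 ± 0.108 CPM (log2 1.37, adjusted p = 0.0196). *Gstm2* (log2 0.96, adjusted p = 0.0356) and *Gstt1* (log2 1.53, adjusted p = 0.0357) also rose, with the reservation that reads of near-identical transferase genes may have been split. *Glrx5*, a mitochondrial glutaredoxin gene, fell (log2 -0.50, adjusted p = 0.0389). The genes *Gpx1*, *Gstm2*, *Gstt1* and *Chac2* were not called with GC content corrected. The 6 genes not tested, among them the cystine importer gene *Slc7a11*, had at most 21 counts in any library.

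None of the 21 genes of the thioredoxin and peroxiredoxin list was called in edgeR, with 4 lower and 3 higher at an unadjusted p under 0.05, while DESeq2 called 3 lower and 1 higher and limma with either pseudocount called 1 higher. The smallest adjusted p belonged to *Txndc17* (log2 0.38, adjusted p = 0.0718), *Prdx4* (log2 -0.72, adjusted p = 0.0839), *Sesn1* (log2 -0.72, adjusted p = 0.0915) and *Prdx3* (log2 -0.36, adjusted p = 0.105). The median log2 difference of the list was 0.03. DESeq2 called *Prdx4* (adjusted p = 0.0426) and *Sesn1* (adjusted p = 0.0344) lower and *Txndc17* higher (adjusted p = 0.0415), and *Txndc17* was also called with GC content corrected (log2 0.57, adjusted p = 0.0418). Without WT library 2 the log2 difference of *Prdx4* was -0.45.

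Of the 11 genes of NADPH supply, 2 were called higher and none lower in edgeR, with 1 lower and 3 higher at an unadjusted p under 0.05, and DESeq2 called none lower and 3 higher. *Me3*, which encodes the mitochondrial malic enzyme, rose from 50.2, 52.3 and 44.5 CPM to 91.6, 77.5 and 81.8 CPM (log2 0.77, SE 0.11, adjusted p = 0.0132). *Pgls*, of the pentose phosphate pathway, rose by less (log2 0.59, SE 0.15, adjusted p = 0.0391) and was not called with GC content corrected (adjusted p = 0.159). *Taldo1* (log2 0.35, adjusted p = 0.0672) and *Idh1* (log2 -0.43, adjusted p = 0.135) were not called in edgeR, *Taldo1* was called higher by DESeq2 (adjusted p = 0.0258) and by both limma fits, and the median of the list was 0.05.

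Of the 20 quinone, carbonyl and xenobiotic enzymes, 2 were called lower and 1 higher, with a median log2 difference of -0.14. *Ugdh*, which makes the sugar for glucuronide conjugation, fell from 15.5, 11.3 and 10.6 CPM to 5.73, 6.70 and 4.38 CPM (log2 -1.15, SE 0.22, adjusted p = 0.0191). *Nqo2*, the relative of *Nqo1*, fell from 32.2 ± 3.11 to 22.4 ± 0.568 CPM (SD, n = 3; log2 -0.52, adjusted p = 0.0235) and the carbonyl reductase gene *Cbr1* rose from 14.0 ± 0.873 to 18.1 ± 0.115 CPM (log2 0.37, adjusted p = 0.0482). Neither was called with GC content corrected (adjusted p = 0.141 and 0.0637). *Akr1a1* was not called in edgeR (log2 0.48, adjusted p = 0.0602), but was called higher by DESeq2 (adjusted p = 0.0125) and by limma with a pseudocount of 1 or 0.1 (adjusted p = 0.0228 and 0.0312). DESeq2 called 3 genes of the list lower and 2 higher.

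The 10 genes of haem breakdown and iron storage held 1 gene called lower and 2 called higher, with a median of 0.06. The subunits of ferritin, the iron store, went opposite ways. The light chain gene *Ftl1* fell from 311, 276 and 258 CPM to 133, 148 and 154 CPM (log2 -0.96, SE 0.13, adjusted p = 0.0131), and the heavy chain gene *Fth1* rose from 1186, 1194 and 1653 CPM to 2924, 2478 and 2887 CPM (log2 1.04, SE 0.19, adjusted p = 0.0183). The ratio of *Fth1* to *Ftl1* on the TPM scale was 3.93, 4.45 and 6.61 in WT and 22.7, 17.3 and 19.3 in the KO-labelled libraries. Ferritin genes have processed pseudogenes, and how reads shared with them were counted is not given in the sources used here. *Tfrc*, the transferrin receptor gene, rose from 86.2 ± 9.48 to 125 ± 14.2 CPM (SD, n = 3; log2 0.54, adjusted p = 0.0373), and *Blvrb* was called by DESeq2 (adjusted p = 0.0496) but not in edgeR (log2 0.64, adjusted p = 0.094).

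Of the 5 genes of superoxide dismutases and catalase, 1 was called lower and none higher in edgeR, with 1 lower and 2 higher at an unadjusted p under 0.05, and DESeq2 called 1 lower and 2 higher. *Sod2*, the mitochondrial enzyme's gene, fell from 393, 452 and 313 CPM to 192, 280 and 221 CPM (log2 -0.74, SE 0.19, adjusted p = 0.0426), and was not called with GC content corrected (adjusted p = 0.148). The cytosolic *Sod1* (log2 0.49, adjusted p = 0.0704), its copper chaperone gene *Ccs* (log2 0.47, adjusted p = 0.0784) and the extracellular *Sod3* (log2 -0.64, adjusted p = 0.243) were not called in edgeR, and the median of the list was -0.23. DESeq2 called *Sod1* (adjusted p = 0.0213) and *Ccs* (adjusted p = 0.0483) higher.

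**Figure D4:**
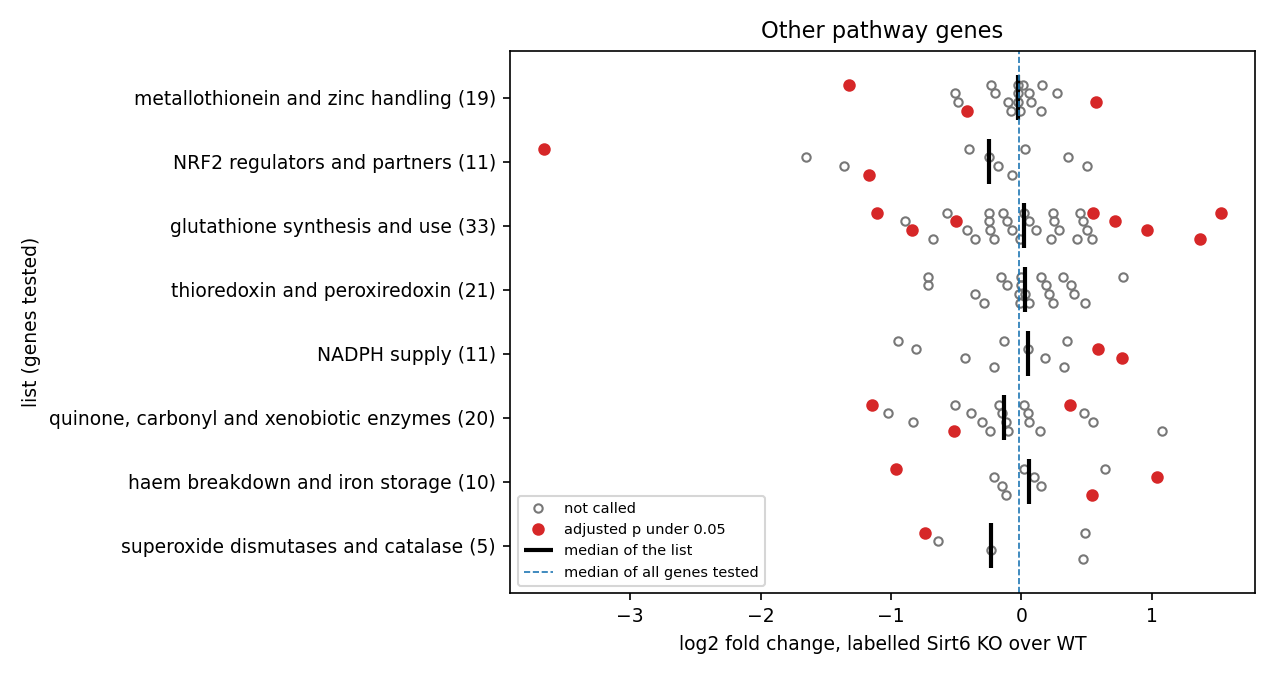
Log2 fold change, libraries labelled *Sirt6* KO over WT (n = 3 each), of the 130 tested pathway genes outside the 10 members, by list, with the number of tested genes in brackets, red points for an adjusted p under 0.05, black bars for list medians and the dashed line for the median of all genes tested. The red points lie on both sides of zero, with *Maff* farthest left at -3.66, and the list medians lie between -0.25 and 0.06.

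The genes whose pattern over the 6 libraries was most like *Mt1* were ranked by the root-mean-square difference of mean-centred log2 CPM. They were *Agpat9* (0.290), *Mt2* (0.294), *Pank1* (0.30), *Plk3* (0.317) and *Slc22a4* (0.319). *Agpat9* was 24.5, 67.1 and 23.4 CPM in WT and 4.63, 9.44 and 6.88 CPM in the KO-labelled libraries, with library 2 the highest of either group as for *Mt1*. For *Srxn1* they were *Spata1* (0.174), *Mir155hg* (0.239), *Hist1h3g* (0.257), *Zfp36* (0.259) and *1700102P08Rik* (0.263), among which *Zfp36*, which encodes an mRNA-destabilizing protein of the immediate-early class, was 70.7, 73.7 and 46.4 CPM in WT and 16.7, 18.8 and 8.68 CPM. *Mir155hg*, *Hist1h3g* and *1700102P08Rik* were at low levels, at most 1.36 CPM in any library. *Srxn1* itself held place 69 for *Mt1* (0.644), and *Mt1* held place 297 and *Nfe2l2* place 211 (0.600) for *Srxn1*. These are descriptions over 6 libraries that share the group difference.

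Levels of other cell types were set beside these values. The slow muscle fiber list, with 0 of 8 genes called, summed to 7302, 8166 and 1389 CPM in WT libraries 1, 2 and 3 and to 1672, 4793 and 2071 CPM in the KO-labelled libraries, so that WT libraries 1 and 2 and library 2 labelled *Sirt6* KO were high. Within its group, library 2 labelled *Sirt6* KO was highest for *Mt1*, *Mt2*, *Srxn1* and *Txnrd1* and lowest for *Nfe2l2*, *Gclc*, *Gsr* and *Nqo1*, and *Hmox1* and *Gclm* were highest in library 3. WT library 3 had the lowest slow sum of all. The erythroid list (0 of 5 tested genes called) summed to 46.6 to 297 CPM in WT and 80.2 to 181 CPM in the KO-labelled libraries, with *Hbb-bt* and *Slc4a1* at 0 in at least 1 library. The macrophage list, the cells that recycle haem through *Hmox1*, summed to 122, 45.1 and 52.8 CPM in WT and 65.8, 57.8 and 65.0 CPM, with 0 of 10 called, *Lyz2* at 0 in WT library 3 and WT library 1 the highest. The endothelial (0 of 8 called, 165 to 303 against 210 to 216 CPM), fibroblast (0 of 7, 588 to 1063 against 714 to 789 CPM) and adipocyte lists (0 of 6, 124 to 257 against 162 to 293 CPM, with *Lep* at 0 in at least 1 library) overlapped between groups, and of the Schwann cell list 1 of 6 was called lower (25.8 to 70.6 against 24.7 to 36.0 CPM). The part of the slow fiber, erythroid, macrophage, endothelial, fibroblast, adipocyte and Schwann cell levels in the differences above was not tested.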

How the data were processed

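Groups and replicate numbers follow the sample labels. The authors made paired-end libraries from poly-A RNA, and per the submitters' processing notes reads were handled with HISAT2 2.1.0, Bowtie2 2.3.4.1 and StringTie 2.1.3b; the reporting summary names STAR. The labels name a stranded kit and the methods an unstranded one, and whether counting used the strand is not given in the sources used here. The counts that the authors deposited are whole read counts per gene on mm10, without normalization. Deposited FPKM values are scaled to length and depth by the authors, and deposited TPM values to a fixed sum per library.

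The count analysis used edgeR 4.0.16 in R 4.3.3: filterByExpr (13801 of 24532 genes kept), TMM normalization (factors 0.910 to 1.11), a quasi-likelihood model with a group term over all 6 libraries, and Benjamini-Hochberg adjustment over all genes tested at 0.05. The common biological coefficient of variation was 24.1%. The scripts were checked on simulated data. Levels are TMM-normalized CPM. Each animal gave 1 library, so n counts animals.

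The 10 members and the gene lists were chosen with earlier results of these data known; the 8 pathway lists were written without the values of their genes having been seen. The rule for naming was the 10 members, *Sirt6*, up to 4 genes with the smallest p per pathway list, and the 5 genes most like *Mt1* and *Srxn1* by edgeR log2 CPM (prior count 2); the further pathway genes called and a few regulators were named after their values were seen. Marker lists were skeletal and slow muscle fiber, macrophage, erythroid, endothelial, fibroblast, adipocyte and Schwann cell; the result of 1 marker gene is not reported here.

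Alternatives were DESeq2 1.42.0, size factors of DESeq2 in edgeR, no low-count filter, a minimum of 10 counts in each library, limma 3.58.1 with quantile normalization after adding 1 or 0.1 to FPKM before log2 (genes with FPKM above 1 in at least 1 library), a block for the replicate number, leaving out single libraries, and removal of a lowess trend (span 0.3) over the GC content of the longest GENCODE M21 transcript, known for 13715 genes tested (99.4%). Promoters and coordinates are RefSeq's on GRCm38.p6, the build named mm10.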

Additional observations from a re-analysis of the deposited data

How the results depend on the processing

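Of all genes, 1158 were called lower and 1084 higher. DESeq2 called 1801 and 1730, and the GC correction left 483 and 468. Before that correction the log2 differences of all genes rose with GC content (Spearman rho 0.334). With single libraries left out the calls lay between 2 and 2219 lower and between 6 and 2363 higher. Of the 10 members 6 were called lower under DESeq2, its size factors, both filters, both pseudocounts and the replicate block, 5 after the GC correction, which lost *Gclm*, and 0 to 6 with a library left out: 0 without library 1 or library 3 labelled *Sirt6* KO, 5 without library 2 labelled *Sirt6* KO or WT library 1, 3 without WT library 2 (*Srxn1*, *Hmox1* and *Gclm*) and 6 without WT library 3. No member was called higher under any of these. The calls over all genes in each fit that lacked a library are given with the members above. *Nqo1* changed sign to -0.03 without WT library 2 and to -0.02 without library 3 labelled *Sirt6* KO. Of the pathway genes outside the members, 11 were called in each direction in edgeR, and DESeq2 called 17 lower and 23 higher. The GC correction gave 8 lower and 7 higher. No filter on low counts also gave 8 and 7, beside 896 and 830 of all genes. With log2(FPKM + 0.1) the calls were 10 and 17, beside 1093 and 1304 of all genes. With log2(FPKM + 1) they were 11 and 19, beside 1161 and 1431. Leaving out a library gave 0 to 21 lower and 0 to 22 higher. The cause of these shifts was not tested.

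The shared replicate numbers were not taken to pair the animals: the correlations of same-numbered libraries' deviations were -0.106, 0.260 and 0.161. WT library 1 and WT library 3 did not correlate best with their own number, and WT library 2 did. With the replicate block, 1018 genes were called lower and 904 higher, of the pathway genes 12 and 8.

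With 3 animals per group, most calls were lost without library 1 or library 3 labelled *Sirt6* KO. The value of 1 count is 0.0165 to 0.0212 CPM, which limits *Gstt2* more than the members.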
